A study of Homo sapiens with 6 samples.

Results

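Heme is built by a chain of enzymes that starts and ends in the mitochondrion and runs through the cytosol in between. The chain joins glycine and succinyl-CoA, closes a ring of pyrroles, trims its side chains, oxidises it to protoporphyrin and inserts iron. Red cell precursors run it at a high rate for haemoglobin, and most other cells keep it low for cytochromes. The genes described here are 9 named members of this chain and its counterpart in heme breakdown: ALAS1, ALAS2, ALAD, UROS, UROD, CPOX, PPOX, FECH and HMOX1. They were taken by symbol, whatever their values, from a table of 35615 symbols, and all 9 were found. Of these, 8 passed the filter on low counts and were among the 14543 genes tested. HMOX1, which encodes the inducible heme oxygenase, did not pass.

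Total RNA was sequenced from K562 cells, an established human line from chronic myeloid leukaemia that carries the BCR-ABL1 fusion kinase, makes embryonic and fetal globins and is labelled a myeloblast. Each sample started from 5 M cells, which received 500 pmol of a commercial mimic by nucleofection. The miR92a group received hsa-miR-92a-1-5p and the scramble group a negative control. Imatinib, a BCR-ABL1 inhibitor, was given to both groups at 1 µM, starting 4 h after nucleofection, and RNA was taken 24 h later. Each group held 3 libraries labelled biological replicates, all from 1 cell line, and cells without imatinib or without nucleofection are not part of the comparison.

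Library totals were 24.8 to 26 M counts, apart from miR92a 1 with 0.704 M. There, 3 counts equal 4.08 CPM (counts-per-million, scaled by the trimmed mean of M-values, TMM), against 0.115 to 0.125 CPM in the other libraries, and 40.3% of tested genes had under 10 counts. All 7 K562 markers were found, at a summed 11300 to 18900 CPM in scramble and 8800 to 17700 CPM in miR92a libraries. Markers of other cells summed to 9.98 to 11.4 and 7.86 to 8.70 CPM for T cells, 2.04 to 4.12 and 1.36 to 4.25 CPM for B cells (MS4A1 at 0 in all libraries), and 3.08 to 5.10 and 1.36 to 2.18 CPM for fibroblasts. Monocyte markers, mostly LYZ, summed to 21.2 to 58.2 and 10.7 to 40.0 CPM. Epithelial markers summed to 135 to 177 and 162 to 175 CPM, all of it EPCAM, with KRT5 and KRT14 at 0. The part of these markers in the results was not tested.

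A microRNA pairs with messenger RNAs mainly through its seed, bases 2 to 8 from its 5′ end. The transfected strand and the strand that usually accumulates from the same hairpin have different seeds, so they are shown together, with the seed in capitals. Both are the RefSeq mature sequences on GRCh38.p14, at chr13:91351324-91351346 and chr13:91351361-91351382 on the plus strand. The chemistry of the mimic was not given in the sources used here.
hsa-miR-92a-1-5p: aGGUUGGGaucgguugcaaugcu
hsa-miR-92a-3p: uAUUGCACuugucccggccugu

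In the GENCODE v29 transcripts searched, FECH and ALAD carried letters complementary to the whole seed of the transfected strand. Their sites are shown because they mark members that the mimic could pair with by sequence. FECH was the sole member with a full match to the seed in its 3′ UTR (CCCAACC, chr18:57550670-57550676, minus strand, base 36 of the UTR). A match of 7 or 8 bases of any of the kinds searched was found in 2173 of 12888 tested genes with an annotated 3′ UTR (16.9%). ALAD held the same letters in its coding sequence (chr9:113390852-113390858, minus strand), and a shorter CCAACC further upstream. Of the same tested genes, 22.0% held a match of 7 or 8 bases of any kind in their coding sequence. Capitals mark the bases that pair with the seed.
FECH 3′ UTR: ttaggcaaatgCCCAACCtccagatacct
ALAD coding: ggaagaccttcCCCAACCtcctggtggcc
ALAS1, ALAS2, UROS, CPOX, PPOX and HMOX1 held none of the matches searched for the transfected strand in their 3′ UTR or coding sequence. For the partner strand miR-92a-3p, 7-base matches (TGCAATA) lay in the 3′ UTRs of ALAD and FECH, where 20.1% of tested genes held a match of 7 or 8 bases, and ALAS2 held the shorter TGCAAT in its coding sequence. The letters searched for the transfected strand were CCAACC and CCCAACC. Each was also read with a further A at the 3′ end, and these matches overlap. A match is a description of letters, and binding was not measured.

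ALAS1 and ALAS2 encode the same first step of the chain from different chromosomes, ALAS1 in nearly all cells and ALAS2 in erythroid cells. Their RefSeq promoters (GRCh38.p14, 250 bases before to 50 after the start) are shown because the 2 genes encode the same step. A difference between the 2 messenger RNAs in their response to the mimic was not tested, nor was a part of the promoters in it. Capitals mark letters that match binding motifs searched on both strands. GATA factors bind AGATAA, which 10.3% of 35116 promoters of this length held on either strand. AP-1 and NFE2 bind TGAGTCA, held by 4.95% of them. NRF1 binds GCATGCGC, held by 3.05%. The CACC box of KLF factors was searched as CCACACCC, held by 3.28%. The ALAS2 window (chrX:55030928-55031227, minus strand) held TTATCT, the reverse complement of AGATAA, at base -127 and TGAGTCA at base -47. The ALAS1 window (chr3:52197833-52198132, plus strand) held GCATGCGC on both strands in overlapping positions just after the start.
ALAS2 promoter: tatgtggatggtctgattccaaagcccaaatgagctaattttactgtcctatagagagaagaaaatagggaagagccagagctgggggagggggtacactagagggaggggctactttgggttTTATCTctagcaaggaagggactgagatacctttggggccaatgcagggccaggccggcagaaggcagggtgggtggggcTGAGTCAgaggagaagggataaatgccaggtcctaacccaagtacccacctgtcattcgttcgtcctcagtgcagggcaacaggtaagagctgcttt
ALAS1 promoter: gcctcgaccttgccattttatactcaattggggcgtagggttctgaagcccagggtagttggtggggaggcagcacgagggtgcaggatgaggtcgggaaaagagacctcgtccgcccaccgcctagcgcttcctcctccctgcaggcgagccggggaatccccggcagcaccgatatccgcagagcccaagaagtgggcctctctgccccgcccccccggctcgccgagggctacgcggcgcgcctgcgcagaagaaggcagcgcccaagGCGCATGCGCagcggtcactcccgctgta
The base composition also differed, with 52.7% G and C in the ALAS2 window and 67.0% in that of ALAS1. Of the other members with an entry, CPOX held 2 AGATAA matches and PPOX, at the second of its 2 starts, 1 AGATAA and 1 CACC match, and ALAD, UROD and FECH held none of the 4 motifs. Of the 9 members, 7 were matched in the promoter table, all but UROS and HMOX1.

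With the mimic, the median change over the tested members was near 0, and ALAS2 was the 1 tested member whose groups did not overlap. Of the 8 tested members, 0 were called with edgeR's quasi-likelihood test on group alone (Benjamini-Hochberg adjusted p under 0.05), where 1.41% of tested genes were called in either direction. DESeq2 and limma-voom also called 0, where they called 385 and 275 of the 14543 tested genes. In the edgeR fit 1 member, ALAS2, had an unadjusted p under 0.05, against 13.5% of tested genes. With the replicate number as a block, 1 member (ALAS2) was called lower, where 6.7% of tested genes were called lower and 11.3% in either direction. The median log2 fold change (miR92a minus scramble) was 0.02 over the 8 members and -0.01 over all tested genes, and with the block it was -0.02 and -0.01. The miR92a libraries of ALAS2 all lay below all scramble libraries, a pattern that 11.5% of tested genes showed. In either direction, groups without overlap were found for 3087 of the 14543 tested genes, so 1 of 8 members does not exceed the background. In bulk RNA, less transcript per cell and fewer cells that make it cannot be told apart.

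**Figure D1:**
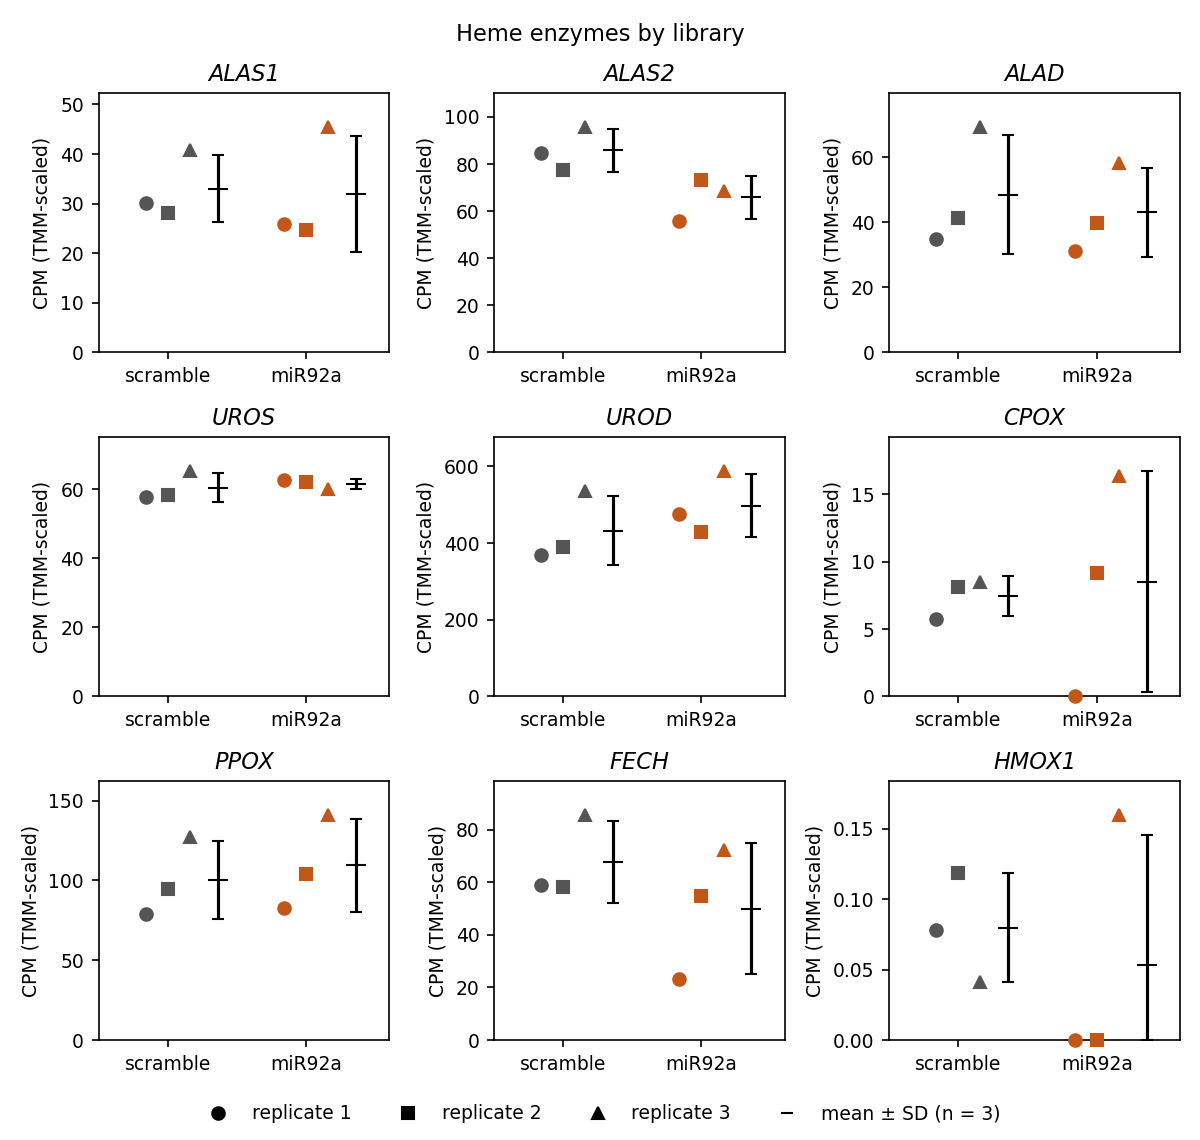
CPM (TMM-scaled, linear axis from 0) of each member in the 3 scramble (grey) and 3 miR92a (orange) libraries, with symbols for replicates 1, 2 and 3 and bars for mean ± SD (n = 3). ALAS2 is the panel of a tested gene without overlap between groups, and replicate 3 (triangles) is highest in both groups for ALAS1, ALAD, UROD, CPOX, PPOX and FECH.

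ALAS2 (chrX:55009055-55031064, minus strand), the erythroid aminolevulinate synthase, stood at 84.7, 77.5 and 95.6 CPM in scramble 1, 2 and 3. The miR92a libraries 1, 2 and 3 held 55.8, 73.3 and 68.7 CPM. All 3 mimic libraries were thus below the lowest control, but miR92a 2 and scramble 2 lay close to each other. The group means were 85.9 ± 9.12 and 65.9 ± 9.08 CPM (SD, n = 3 each). On the log2 scale the difference was -0.34 ± 0.12 (SE; 95% interval -0.62 to -0.05), with an adjusted p of 0.28 without the block and 0.26 to 0.60 over the unblocked alternatives. With the block ALAS2 fell by 0.33 ± 0.10 (adjusted p = 0.044). The block takes replicate numbers as pairs, although replicates 1 and 2 were not told apart. The differences within same-numbered pairs were -0.60, -0.08 and -0.48. With pair 2 left out the blocked log2 difference was -0.52 (adjusted p = 0.027), but without pair 1 it was -0.27 (0.18) and without pair 3 -0.17 (0.31), so the call rested on both of those pairs. The 41 counts in miR92a 1 allow 40.0 to 75.6 CPM (exact Poisson 95% interval, for counting error alone and not the spread between libraries). The last exons of ALAS2 and APEX2 overlap by 3 bases on opposite strands.

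ALAS1 (chr3:52198086-52214327, plus strand), the form of the same enzyme found in most cells, which heme represses in liver, gave another pattern. Its values were 30.2, 28.1 and 40.8 CPM in scramble and 25.8, 24.7 and 45.4 CPM in miR92a libraries. Replicate 3 was highest in both groups, and the groups overlapped fully. The means were 33.1 ± 6.81 and 32.0 ± 11.7 CPM, and the log2 difference was 0.02 ± 0.25 (95% interval -0.56 to 0.60, adjusted p = 0.99). Per kilobase of transcript, the ALAS2 level was 3.36, 3.30 and 2.81 times that of ALAS1 in scramble 1, 2 and 3 and 2.59, 3.56 and 1.81 times in miR92a 1, 2 and 3. The ratio was lowest in replicate 3 among scramble and among miR92a libraries.

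The cytosolic steps follow. ALAD (chr9:113386317-113401333, minus strand), aminolevulinate dehydratase, makes the pyrrole porphobilinogen. It stood at 35.0, 41.4 and 69.2 CPM in scramble and 31.3, 39.7 and 58.1 CPM in miR92a libraries. Each mimic library was a little below its same-numbered control (pair differences -0.16, -0.06 and -0.25 on the log2 scale), within a spread between replicates that was far wider. The log2 difference was -0.08 ± 0.28 (adjusted p = 0.95), and with the block -0.16 ± 0.11 (0.41).

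UROS (chr10:125784980-125823285, minus strand), uroporphyrinogen III synthase, closes the ring in the form that leads to heme. It was the steadiest member, at 57.8, 58.3 and 65.3 CPM in scramble and 62.6, 62.2 and 60.0 CPM in miR92a libraries. The log2 difference was 0.02 ± 0.10 (adjusted p = 0.97), and its 95% interval spans a fold change of 0.868 to 1.19. UROS thus had the narrowest interval of the 8 members on group alone.

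UROD (chr1:45012147-45015575, plus strand), uroporphyrinogen decarboxylase, trims the ring's side chains. It stood at 370, 391 and 535 CPM in scramble and 475, 428 and 588 CPM in miR92a libraries. Each mimic library was above its same-numbered control (pair differences 0.36, 0.13 and 0.14), but the groups overlapped. The log2 difference was 0.20 ± 0.17 (adjusted p = 0.68) and with the block 0.20 ± 0.08 (0.12). With pair 3 left out the blocked value was 0.21 (adjusted p = 0.026), the one fit in which UROD was called, as higher.

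The last steps return to the mitochondrion. CPOX (chr3:98579446-98593723, minus strand), coproporphyrinogen oxidase, stood at 5.77, 8.14 and 8.48 CPM in scramble and 0, 9.16 and 16.4 CPM in miR92a libraries. The 0 of miR92a 1 allows up to 5.02 CPM (exact Poisson 95% interval, for counting error alone), under every other library. The remaining mimic libraries lay above all controls, so the 3 mimic libraries fell on both sides of the control range. The log2 difference was 0.56 ± 0.47 (95% interval -0.51 to 1.63, adjusted p = 0.69), and without miR92a 1 it was 0.77 (0.34). A gene on the same strand, AC021660.3, spans 6053 bases of the CPOX locus with 0 shared bases in exons of coding transcripts.

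PPOX (chr1:161166410-161178013, plus strand), protoporphyrinogen oxidase, removes hydrogens to give protoporphyrin. It held 79.1, 94.4 and 127 CPM in scramble and 83.0, 104 and 141 CPM in miR92a libraries. The libraries were ordered 1, 2, 3 by level in both groups, and each mimic library was slightly above its control (0.07, 0.14 and 0.15). The log2 difference was 0.18 ± 0.21 (adjusted p = 0.80) and with the block 0.13 ± 0.09 (0.39). B4GALT3 lies on the opposite strand over 6659 bases of the locus, with 0 bases shared between exons of coding transcripts.

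FECH (chr18:57548283-57586772, minus strand), ferrochelatase, inserts iron and completes heme, and it is the member with the full seed match in its 3′ UTR shown above. It held 58.9, 58.2 and 85.6 CPM in scramble and 23.1, 54.7 and 72.1 CPM in miR92a libraries. Each mimic library was below its same-numbered control, by log2 differences of -1.34, -0.09 and -0.25, and only miR92a 1 was far below. That library's 17 counts allow 13.5 to 37.0 CPM (exact Poisson 95% interval, again for counting error alone), and the other 5 libraries held 54.7 to 85.6 CPM. The group means were 67.6 ± 15.6 and 50.0 ± 24.8 CPM, with a log2 difference of -0.27 ± 0.28 (95% interval -0.91 to 0.36, adjusted p = 0.76). With the block it was -0.31 ± 0.13 (0.14). On group alone it was -0.09 (0.90) without miR92a 1, -0.04 (0.97) without scramble 3 and -0.54 (0.54) without miR92a 3, so its size depended on single libraries of both groups. Its processed pseudogene FECHP1 was listed at 0 in all libraries.

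**Figure D2:**
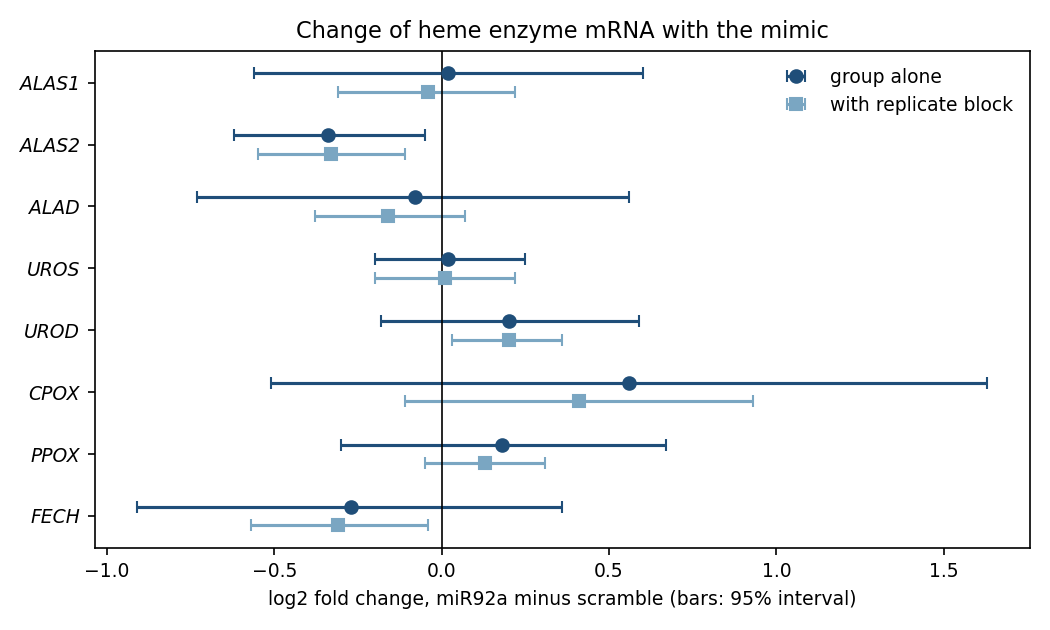
Log2 fold change (miR92a minus scramble) of the 8 tested members in the fit on group alone (dark circles) and with the replicate block (light squares), with 95% intervals as bars. The ALAS2 intervals, -0.62 to -0.05 and -0.55 to -0.11, lie below 0 in both fits, while those of FECH (-0.57 to -0.04) and UROD (0.03 to 0.36) leave 0 only with the block.

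HMOX1 (chr22:35380361-35394214, plus strand) opens the heme ring and releases iron, carbon monoxide and biliverdin, and it is a standard readout of heme and oxidative stress. It was almost absent from these cells, with 2, 3 and 1 counts in scramble and 0, 0 and 4 counts in miR92a libraries. Summed over libraries this is 6 counts of 75.5 M, or 0.0794 CPM of the unscaled totals (exact Poisson 95% interval 0.0291 to 0.173), and 4 of 52.3 M, or 0.0765 (0.0208 to 0.195). These intervals cover counting error only. A difference between the groups was not detectable at this depth, and no fold is given.

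Levels were compared between genes only per kilobase of the longest coding transcript. By the median over the 6 libraries, UROD stood first with 347 CPM per kilobase (range 285 to 452), followed by PPOX with 56.9 (45.5 to 81.0), ALAS2 with 37.2 (27.5 to 47.2) and UROS with 19.2 (18.1 to 20.5). FECH had 15.2 (6.0 to 22.2), ALAD 12.8 (9.86 to 21.8), ALAS1 12.0 (10.1 to 18.7), CPOX 2.95 (0 to 5.80) and HMOX1 0.0329 (0 to 0.0880). UROD therefore stood apart from all other members, as its lowest library lay above the highest of PPOX. With this length, gaps without overlap also separated ALAS2 from UROS and ALAS1 from CPOX. PPOX and ALAS2 overlapped in range although PPOX was higher in 6 of 6 libraries. UROS, FECH, ALAD and ALAS1 formed a middle group in which neighbours overlapped, and CPOX and HMOX1 overlapped through the 0 values. The order was the same with the mean transcript length in place of the longest, but gaps and overlaps were read with the longest alone. The ALAS2 and UROS means, 37.5 and 19.1 CPM per kilobase by the longest transcript, were closer by mean length, at 62.4 and 49.1. The gap between them therefore depends on the length used.

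**Figure D3:**
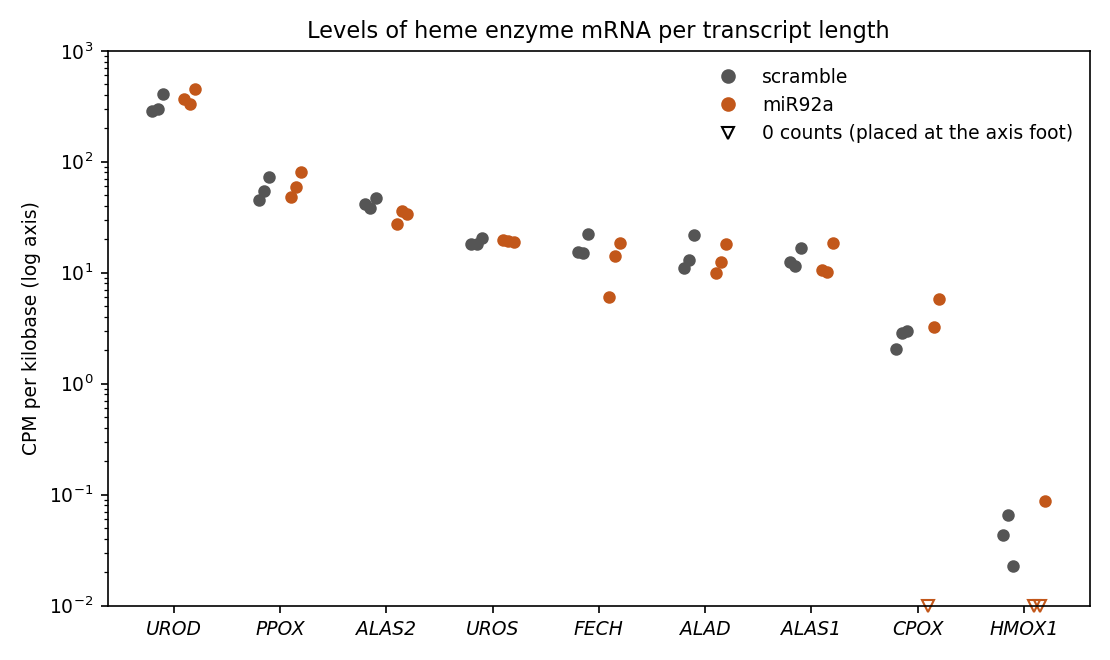
CPM per kilobase of the longest coding transcript (log axis) for each member in the 3 scramble (grey) and 3 miR92a (orange) libraries, ordered by level, with open triangles at the foot for libraries with 0 counts. UROD (285 to 452) lies above all other members and HMOX1, at 0.0880 or lower, below all libraries of the other members except the 0 of CPOX.

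Most members also differed by replicate number. Replicate 3 was the highest library of both groups for 6 of the 8 tested members (ALAS1, ALAD, UROD, CPOX, PPOX and FECH), where 24.9% of all tested genes showed this. The median log2 excess of replicate 3 over the mean of replicates 1 and 2 was 0.49 in scramble and 0.66 in miR92a libraries over the members, against 0.00 and 0.06 over all tested genes. Against miR92a 2 alone, which leaves out the library of low depth, the excess in miR92a 3 was 0.88 for ALAS1, 0.83 for CPOX, 0.55 for ALAD, 0.46 for UROD, 0.44 for PPOX and 0.40 for FECH. For ALAS2 and UROS, replicate 3 was also the highest scramble library, by 0.24 and 0.17 over the mean of replicates 1 and 2. It was not the highest miR92a library for either gene. The values there were 0.10 for ALAS2 and -0.06 for UROS against that mean, and -0.09 and -0.05 against miR92a 2.

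Other values of these libraries ran with the same number. The embryonic globin HBE1 held 3180, 3160 and 6260 CPM in scramble and 2550, 2870 and 6680 CPM in miR92a libraries. HBZ, also an embryonic globin, held 2230, 2510 and 4900 CPM and 1560, 1710 and 4420 CPM. GATA1, the transcription factor that drives many erythroid genes, went the other way, at 215, 221 and 171 CPM and 207, 222 and 176 CPM. The share of counts from mitochondrially encoded genes was 8.81%, 9.52% and 11.2% in scramble and 8.71%, 9.45% and 9.96% in miR92a libraries. These 3 genes were chosen after their values were seen. What the libraries of one number shared is not given in the labels, and the part of these differences in the member values was not tested.

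**Figure D4:**
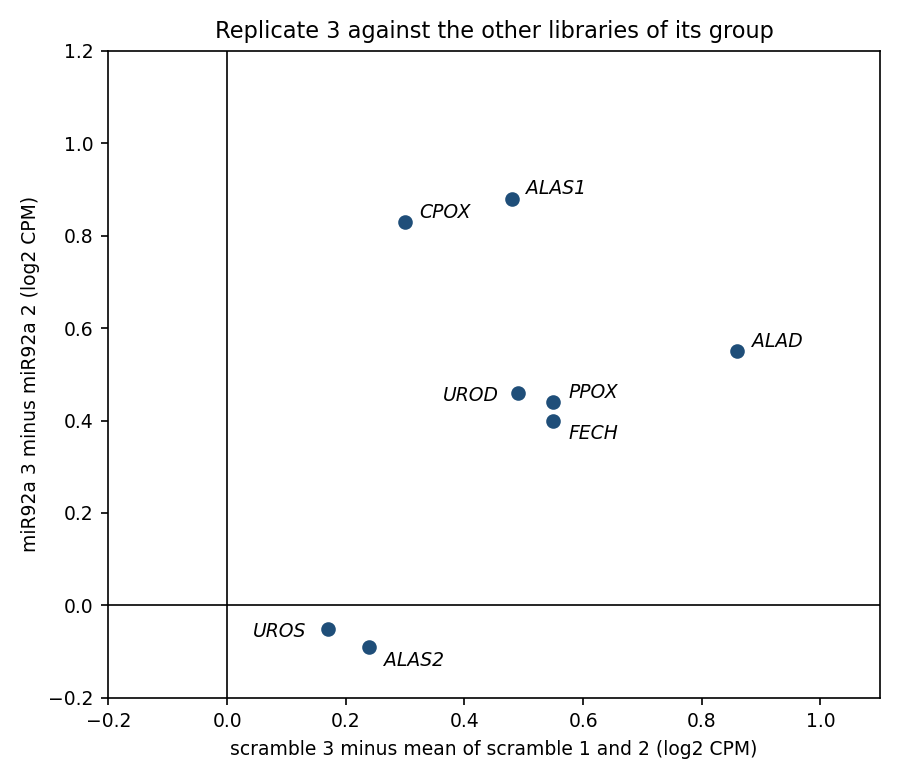
Log2 CPM of scramble 3 minus the mean of scramble 1 and 2 (horizontal) against miR92a 3 minus miR92a 2 (vertical) for the 8 tested members. The 6 members named above lie in the upper right, with values of at least 0.30 and 0.40, and ALAS2 and UROS lie below 0 on the vertical axis.

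By root mean square difference of library profiles (log2 CPM centred on each gene's mean, over 6 libraries and 7784 genes of at least 20 CPM), genes most like ALAD included MRC2 (0.08) and the mitochondrially encoded MT-ND1 (0.09). Those most like FECH were GSTT1 (0.13), GCLC (0.15) and TMEM116 (0.17). ALAD and FECH were the members of at least 20 CPM with the widest range over the libraries. Both of those genes near ALAD had replicate 3 highest in both groups, as MT-ND1 did with 3740, 4300 and 6980 CPM in scramble and 3790, 4480 and 6500 CPM in miR92a libraries. The genes near FECH shared its low value in miR92a 1, where GSTT1 stood at 12.2 CPM against 25.3 to 34.3 CPM elsewhere. In that library of low depth GCLC held 5 counts. All these genes were picked by likeness over the same 6 libraries, so the shared highs and lows follow from the choice.

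Genes around the chain were read from 5 lists of 68 genes in all, of which 63 were tested. On group alone 0 of the 63 were called by edgeR (9 had an unadjusted p under 0.05, 6 lower and 3 higher), limma-voom called 0 and DESeq2 called 3, NFE2 and OGDH among them. With the block 5 were lower and 2 higher, and with pair 1, 2 or 3 left out 4, 3 and 7 were called. Over all 14543 tested genes on group alone, edgeR called 1.41%, limma-voom 275 genes and DESeq2 385 genes, and 13.5% had an unadjusted p under 0.05. With the block 11.3% of all tested genes were called.

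Control of heme synthesis and heme sensing was covered by 20 tested genes, of which 2 were lower and 1 higher with the block (median log2 0.07 without it). NFE2, an erythroid factor that binds sites holding TGAGTCA, held 309, 332 and 294 CPM in scramble and 229, 265 and 220 CPM in miR92a libraries. Its groups did not overlap, and with the block it fell by 0.39 ± 0.08 (adjusted p = 0.0023; 0.13 without). NFE2L2, the stress factor that induces HMOX1, held 101, 97.1 and 85.9 CPM against 72.1, 75.4 and 70.1 CPM. With the block it fell by 0.36 ± 0.09 (0.013; 0.13 without). LONP1, a mitochondrial protease known to degrade ALAS1 protein, held 174, 171 and 159 CPM against 195, 207 and 240 CPM. With the block it rose by 0.37 ± 0.09 (0.0091; 0.15 without).

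The targets of NFE2L2 and BACH1 included 12 tested genes, 2 lower and 1 higher with the block (median log2 -0.08 without it). The ferritin subunits moved in opposite directions with the block. The light chain FTL fell by 0.34 ± 0.08 (0.0052; 0.32 without) and the heavy chain FTH1 rose by 0.24 ± 0.07 (0.035; 0.28 without).

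Among 11 tested genes for other heme enzymes and substrate supply, 1 was lower with the block (median log2 -0.04 without it). OGDH, part of the enzyme complex that makes succinyl-CoA, held 127, 132 and 119 CPM in scramble and 93.9, 96.8 and 93.6 CPM in miR92a libraries. It fell by 0.41 ± 0.09 with the block (0.0037; 0.070 without).

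Mitochondrial and heme transport (14 tested genes, median log2 -0.04) and heme breakdown with HMOX1 partners (6 tested genes, median 0.04) had 0 genes called in either fit, and 0 at an unadjusted p under 0.05 on group alone. The mitochondrial iron importer SLC25A37 stood at 1110, 1160 and 1750 CPM in scramble and 1100, 1040 and 1430 CPM in miR92a libraries (log2 difference -0.17, adjusted p = 0.79). SLC25A39, a carrier of the same family that imports glutathione, had a log2 difference of 0.04 (0.91). Of the breakdown genes, the biliverdin reductase BLVRB held 329, 339 and 395 CPM against 354, 370 and 462 CPM (0.17, adjusted p = 0.64). POR, which passes electrons to heme oxygenase, held 92.5, 93.6 and 82.5 CPM against 102, 97.3 and 100 CPM (0.15, adjusted p = 0.55).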

How the data were processed

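Gene expression was measured by paired-end sequencing of total RNA from 6 K562 libraries, 3 per group, grouped by their labels. The values are expected counts: the authors estimated reads per gene symbol with kallisto and GRCh38, per the submitters' processing notes, and deposited them as whole numbers. The kallisto version, annotation and library strand are not given in the sources used here.

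Genes were filtered with filterByExpr (minimum count 10), scaled by TMM and tested in edgeR 4.0.16 (R 4.3.3). The test was quasi-likelihood, with group as the sole term and Benjamini-Hochberg adjustment over 14543 genes at a threshold of 0.05. A log2 fold change over the root of its F statistic gave the SE. CPM were computed with TMM scaling, and log2 CPM with a prior count of 2. The code was tested on simulated data. The labels call the libraries biological replicates without saying what was separate, so p-values measure the spread between these libraries.

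Whether the numbers pair libraries was checked by correlating each library's departure from its group mean. Libraries of the same number gave 0.15, 0.16 and 0.42 over all tested genes. Each was over 0.1, so the replicate number was also fitted as a block and is given where it changes a call. Scramble 1 with miR92a 2 (0.099) and scramble 2 with miR92a 1 (0.09) came close, so replicates 1 and 2 were not told apart. Alternatives were DESeq2 1.42.0, limma-voom (limma 3.58.1), other scalings and filters, the block with and without each pair, and each library left out.

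The members, lists and rules were chosen with earlier results of these data known. Named were all members, from each list up to 4 genes called with the block or else the 2 of highest mean CPM, and the 3 genes nearest in profile to the 2 most variable members. Some items that these rules name are not reported here. HBE1, HBZ and GATA1 were named after their values were seen. Of 68 list genes, FDX1L was not matched by symbol. Seed matches and gene positions used GENCODE v29, and miRNAs and promoters RefSeq tables.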

Additional observations from a re-analysis of the deposited data

How the results depend on the processing

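For the 8 tested members, the log2 difference kept its direction and its side of the threshold in 108 of the comparisons with an alternative, changed direction in 17 and newly passed in 3. It never changed direction for ALAS2 (-0.52 to -0.17), UROD (0.05 to 0.39) or FECH (-0.54 to -0.04). ALAS1 changed to -0.04 with the replicate block, to -0.01 with the block without pair 1 and to -0.20 without pair 3. ALAD changed to 0.02 with limma-voom. UROS changed to -0.01 and -0.05 with the block without pair 1 or 2, and CPOX to -0.10 without pair 3. With 1 library left out, values ran from -0.41 to 0.26 for ALAS1, -0.41 to -0.24 for ALAS2, -0.37 to 0.27 for ALAD, -0.01 to 0.08 for UROS, -0.02 to 0.77 for CPOX and -0.05 to 0.40 for PPOX. The number of members called, 0, became 1 with the block, 1 without pair 2, 1 without pair 3 and 0 without pair 1. Genes called over the whole table, 205, became 385 with DESeq2, 1639 with the block, 1237, 834 and 1420 with pair 1, 2 or 3 left out of it, and 70 (without scramble 2) to 201 (without scramble 3) with 1 library left out. Leaving out scramble 1 or any miR92a library also lowered it, to between 72 and 129. Context-list genes called, 0, became 3 with DESeq2, 1 with no filter on low counts, 7 with the block, 4, 3 and 7 with pair 1, 2 or 3 left out, and 0 to 1 with 1 library left out. The cause of these changes was not tested. Depth limits the values of miR92a 1, where the tested members held 0 to 349 counts.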
